A study of Mus musculus with 9 samples.

Results

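A group of 9 noncoding RNA genes of the mouse was followed here across all libraries of a single-cell study of Hedgehog signalling. They are Malat1 and Neat1, which stay in the nucleus, the small nucleolar RNA host genes Gas5, Snhg1, Snhg3, Snhg8, Snhg9 and Snhg12, and the small RNA Bc1. The 9 were matched by gene symbol among 32286 features of Experiment 2, and 5 of them (Malat1, Neat1, Snhg9, Snhg12 and Bc1) also among 31054 features of Experiment 1. Gas5, Snhg1, Snhg3 and Snhg8 were matched in the feature list of Experiment 2 and not in that of Experiment 1, so their values come from 6 libraries. The members were matched by symbol alone, but the group was chosen with earlier results of these data known.

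NIH3T3-CG is an established mouse fibroblast line of embryonic origin. The cells were released from 6-well plates with trypsin, and their RNA was captured in droplets with a 10x Genomics kit that reads the 3' ends of transcripts. SAG is a small molecule that activates Smoothened and so the Hedgehog pathway. Experiment 1 has 1 library each after 0, 17 and 30 h of SAG, and its labels mention no Dox. Experiment 2 has 1 library each after 0, 19 and 30 h of SAG, once without and once with Dox, and the labels give neither what Dox induces nor the dose of SAG. The question here was how the members' levels differ with SAG time, with Dox, between the experiments, and between barcodes that differ in their share of mitochondrial RNA. No later library without SAG is labelled, so SAG time, time in culture and time of harvest cannot be told apart. Separate cultures are not stated in the labels, and the p-values below reflect the variation among these libraries alone, some or all of it possibly technical.

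Small nucleolar RNAs guide the chemical modification and cutting of ribosomal RNA, and most of those in mammals are cut out of the introns of host genes. Several host genes begin with a run of pyrimidines, the 5' terminal oligopyrimidine start that ribosomal protein genes also carry, and their spliced RNAs are often degraded by nonsense-mediated decay once they are translated. Malat1 is a long noncoding RNA of nuclear speckles, where splicing factors gather, and Neat1 is the scaffold of paraspeckles, nuclear bodies built with proteins such as Sfpq and Nono. Bc1 is made by RNA polymerase III, is best known from neurons, and binds translation factors.

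On GRCm38 with the GENCODE vM21 annotation, Malat1 lies on the minus strand at chr19:5795690-5802672 and Neat1 on the same strand at chr19:5824708-5845478, and neither has an annotated small nucleolar RNA inside it. Gas5, on the plus strand at chr1:161034422-161038539, spans 9 annotated small nucleolar RNA positions, and Snhg1, on the plus strand at chr19:8723475-8726443, spans 8. Snhg12 at chr4:132308623-132311024 on the plus strand spans 4 positions, and Snhg3 at chr4:132348014-132353686 on the minus strand spans 2, Snora73a and Snora73b. Snhg8 at chr3:123507552-123508404 holds Snora24 and Snhg9 at chr17:24719531-24719965 holds Snora78, both on the minus strand. Bc1 is a gene of 168 bases at chr7:144914470-144914637 on the plus strand. Snhg3 shares 135 of its 986 exonic bases with the gene Rcc1 on the same strand and 705 with Gm17300 on the other strand. Snhg9 shares 14 of its 183 exonic bases with the opposite strand of Rps2, a ribosomal protein gene. The sources used here do not give whether reads were counted by strand, so reads of such pairs may not be separated.

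The transcripts of the 2 shortest members are printed because these members had the largest changes below. Capitals mark the runs of at least 8 A in Bc1, of 23 and 9 bases, and the AATAAA signal of Snhg9, which starts 20 bases from its end. The kit primes on stretches of A, and whether it primed inside Bc1 was not tested.
Bc1 (GRCm38, chr7:144914470-144914637, plus strand): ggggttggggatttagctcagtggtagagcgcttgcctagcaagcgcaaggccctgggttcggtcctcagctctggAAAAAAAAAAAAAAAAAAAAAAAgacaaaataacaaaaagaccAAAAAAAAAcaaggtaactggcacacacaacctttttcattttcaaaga
Snhg9 (GRCm38, spliced from chr17:24719531-24719965, minus strand): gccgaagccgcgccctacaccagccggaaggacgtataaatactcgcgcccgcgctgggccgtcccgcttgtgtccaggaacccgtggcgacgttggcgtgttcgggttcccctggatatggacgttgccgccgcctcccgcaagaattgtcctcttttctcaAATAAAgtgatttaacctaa

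Start sites are shown for the host genes because the terminal oligopyrimidine pattern includes a run of C and T from the first base. RefSeq starts on GRCm38.p6 were found for 8 of the 9 members, at 9 start sites. Each line gives 15 bases before and 25 bases from the first transcribed base onward, and capitals mark the unbroken run of C and T from that base.
Gas5, second start (chr1:161035151-161035190, plus strand): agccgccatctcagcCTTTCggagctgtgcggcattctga
Snhg8 (chr3:123508312-123508351, minus strand): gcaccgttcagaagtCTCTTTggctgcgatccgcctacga
Snhg12 (chr4:132308663-132308702, plus strand): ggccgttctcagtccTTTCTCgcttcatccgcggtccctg
Snhg1 (chr19:8723472-8723511, plus strand): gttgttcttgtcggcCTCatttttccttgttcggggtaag
Runs of at least 5 such bases stood at the second Gas5 start and at the Snhg8 and Snhg12 starts, while the run of Snhg1 had 3 bases. The starts of Snhg3, Snhg9 and Bc1 and the first start of Gas5 began with another base. The run of Snhg12 opens with T, and those of Gas5 and Snhg8 open with C. Among all 32851 annotated starts, 4.44% had a run of at least 5, and among 72 starts of cytosolic ribosomal protein genes 23.6% had one. The starts are annotated, and first bases were not measured here. Most of these ribosomal protein gene starts lacked such a run, so its absence at a member does not show that the pattern is missing.

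Barcodes with at least 5000 UMIs (unique molecular identifiers, each counting 1 captured molecule) were kept, 931 to 1270 per library in Experiment 1 and 2504 to 9301 in Experiment 2. Their summed counts outside mitochondrial genes came to between 29972724 and 35324161 UMIs in Experiment 1 and between 65099344 and 135821938 in Experiment 2. The library at 19 h without Dox stood apart, with the most barcodes and a median of 8155 UMIs, against up to 46944 in the other libraries of its experiment. No pair of libraries shared more than 56 barcode sequences, or 0.793% of the smaller. Levels are given as CPM, the UMIs of a gene per 1000000 non-mitochondrial UMIs of the library or class of barcodes. Gli1, a direct Hedgehog target, was at 0.340, 12.1 and 6.76 CPM at 0, 17 and 30 h in Experiment 1, at 0.0457, 8.17 and 18.7 without Dox in Experiment 2 and at 0.108, 27.8 and 35.7 with Dox. All 9 fibroblast markers were measured in every library, at a summed level of 7339 to 13839 CPM. The 12 neuron markers summed to 7.82 to 20.8 CPM, with Nefm at 0 in all 9 libraries. Markers of macrophages reached 21.0, of endothelium 2.03, of epithelium 0.646 and of red cells 1.03 CPM, and of smooth muscle or myofibroblasts 477.

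**Figure D1:**
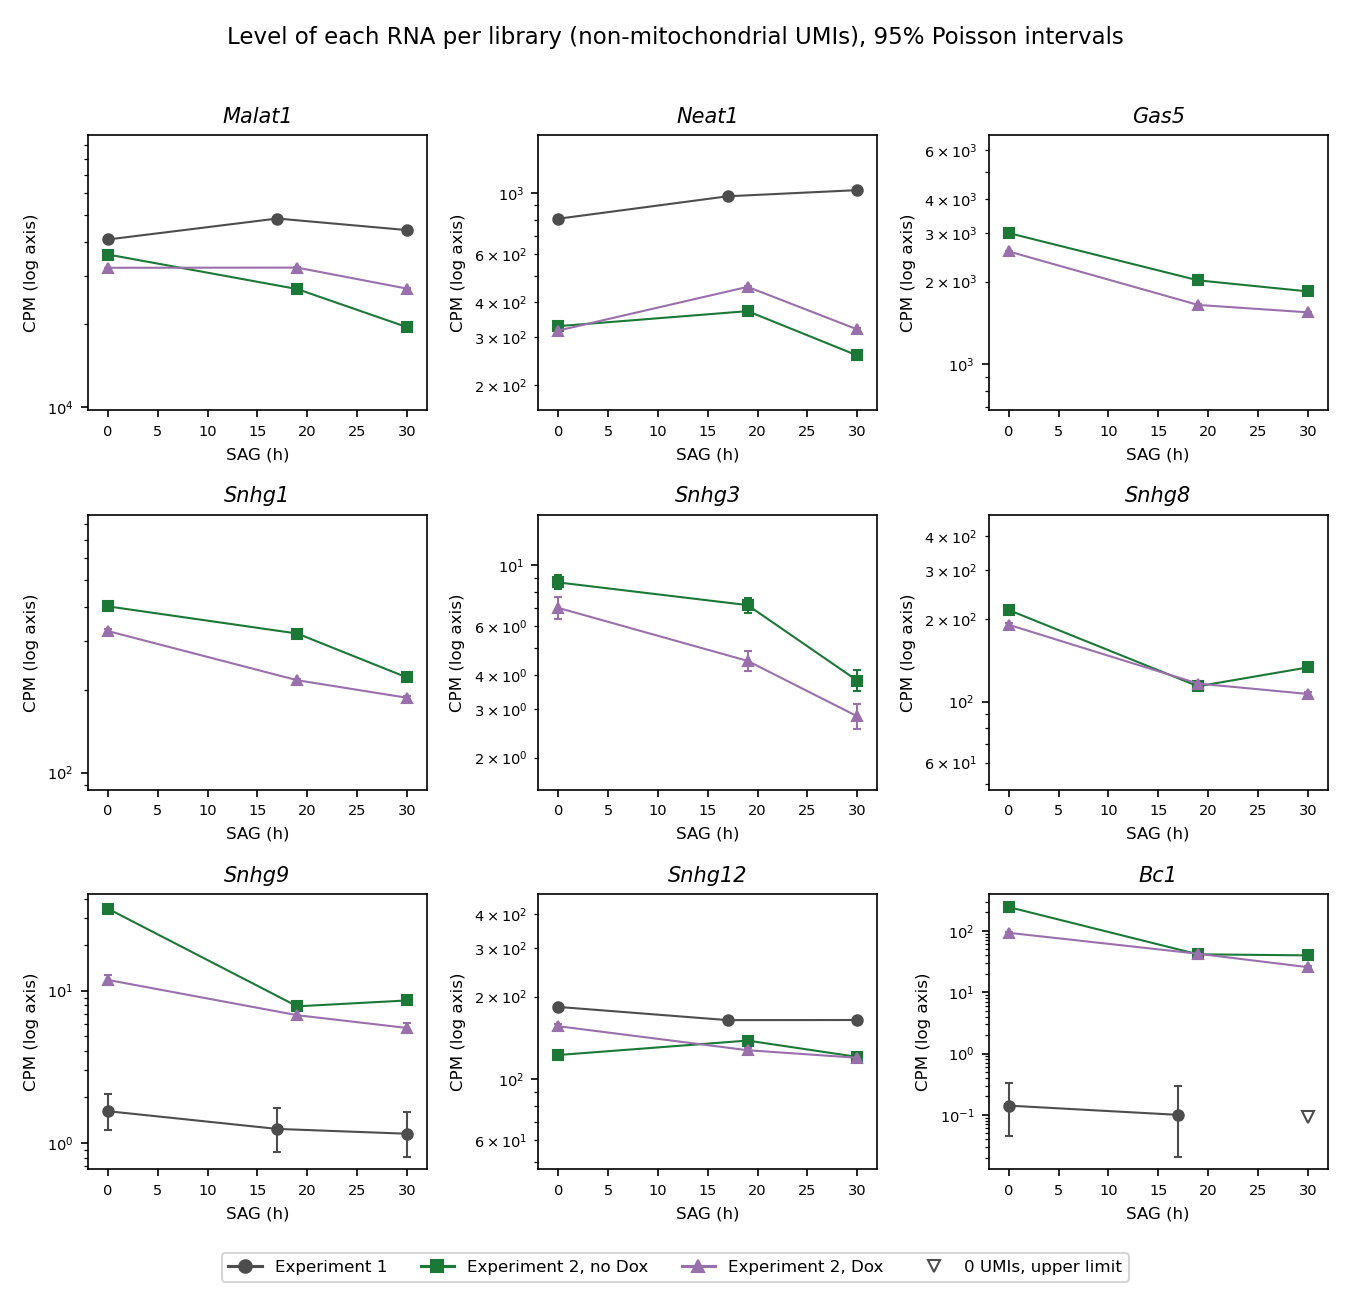
Level of each member in each library, in CPM on a log axis, against hours of SAG. Each point is 1 library and the bars are exact 95% Poisson intervals for counting error, with Experiment 1 and the arms of Experiment 2 without and with Dox drawn separately and an open triangle at the upper limit where the count is 0. Bc1 and Snhg9 are highest in the untreated Experiment 2 library without Dox, and Bc1 is at 5 UMIs or fewer in each library of Experiment 1.

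Bc1 had the largest change with SAG time in Experiment 2 among the members. In the arm without Dox it was at 244 CPM at 0 h, 41.4 at 19 h and 39.8 at 30 h, and in the arm with Dox at 92.8, 42.4 and 25.6. In Experiment 1 the same feature had 5, 3 and 0 UMIs in the libraries at 0, 17 and 30 h, where a count of 0 allows up to 0.0931 CPM (3 counts). Within Experiment 2 both untreated libraries thus lay above all 4 treated ones, and the untreated library without Dox lay above the one with Dox. Without Dox the level at 30 h was 6.12-fold lower than at 0 h, and the log2 ratio to 0 h was -2.56 at 19 h and -2.61 at 30 h. With Dox these ratios were -1.13 and -1.86.

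Snhg9, the host of Snora78, moved in the same libraries. Its level was 34.4, 7.88 and 8.61 at 0, 19 and 30 h without Dox in Experiment 2 and 11.7, 6.89 and 5.68 with Dox. In Experiment 1 it was at 1.61, 1.23 and 1.15 at 0, 17 and 30 h, from 57, 37 and 37 UMIs. Both untreated libraries of Experiment 2 were again above the 4 treated ones. The log2 ratio at 30 h to 0 h was -0.49 in Experiment 1, -2.0 without Dox and -1.05 with Dox in Experiment 2. The level of Rps2, whose opposite strand Snhg9 overlaps, was 2940, 2696 and 3863 in Experiment 1, 7012, 6595 and 4457 without Dox and 5482, 3878 and 3782 with Dox in Experiment 2.

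In the fit over the 9 libraries, with condition and experiment as terms, Bc1 and Snhg9 were the members called lower without Dox (edgeR quasi-likelihood test, with Benjamini-Hochberg adjusted p under 0.05 over all genes tested). The log2 change of Bc1 was -2.59 at 17 to 19 h (SE 0.37, adjusted p = 1.63e-08) and -3.01 at 30 h (SE 0.37, adjusted p = 5.46e-12). Snhg9 changed by -1.64 (SE 0.28, adjusted p = 5.46e-06) and by -1.75 (SE 0.28, adjusted p = 3.37e-07). These were 2 of 5 members tested, where 0.159% of 15105 genes were called lower at 17 to 19 h and 1.29% at 30 h. Malat1, Neat1 and Snhg12 were not called, with log2 changes at 30 h of -0.59, -0.18 and -0.28. From 17 to 19 h to 30 h no member was called, where 0.119% of genes were called in either direction. Both calls rested on Experiment 2 and ended without its untreated library lacking Dox, where the changes at 30 h were -0.43 for Snhg9 and -1.66 for Bc1, or without its treated library of that time. DESeq2 with the same terms called neither Bc1 at 30 h (-3.18, adjusted p = 0.536) nor Snhg9 at 17 to 19 h (adjusted p = 0.134), and edgeR called no gene when the experiment was not a block.

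The change of Bc1 was 1.10 less negative with Dox at 17 to 19 h on the log2 scale (SE 0.50) and 0.82 less negative at 30 h. Neither of these differences passed the test, the first having an unadjusted p of 0.0280 and an adjusted p of 1.0 in edgeR. No member was called for a difference with Dox of the change with SAG time. For this difference edgeR called 0.0662% of genes at 17 to 19 h and 0.146% at 30 h in either direction. For Gas5, Snhg1, Snhg3 and Snhg8 this difference could not be tested, since 6 libraries with time, Dox and their interaction leave no residual degrees of freedom.

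Experiment 2 was then fitted by itself with all of its features, a fit added after the files had been seen, with SAG time and Dox as terms. All 9 members were called lower at 30 h than at 0 h, where 22.6% of 14964 genes were called lower in edgeR. At 19 h 6 of the 9 were called lower (Gas5, Snhg1, Snhg3, Snhg8, Snhg9 and Bc1), against 8.97% of the genes. Bc1 changed by -2.13 at 19 h and -2.66 at 30 h (SE 0.20 at both), and Snhg9 by -1.76 and -1.96 (SE 0.18 at both), and these calls held with each of the 4 libraries compared left out in turn. The median change of the 9 members was -1.14 at 30 h, beside 0.01 for all genes tested. At 19 h it was -0.72, also beside 0.01. A gene had to pass the filter on low counts to be tested, and all 9 passed it here.

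**Figure D2:**
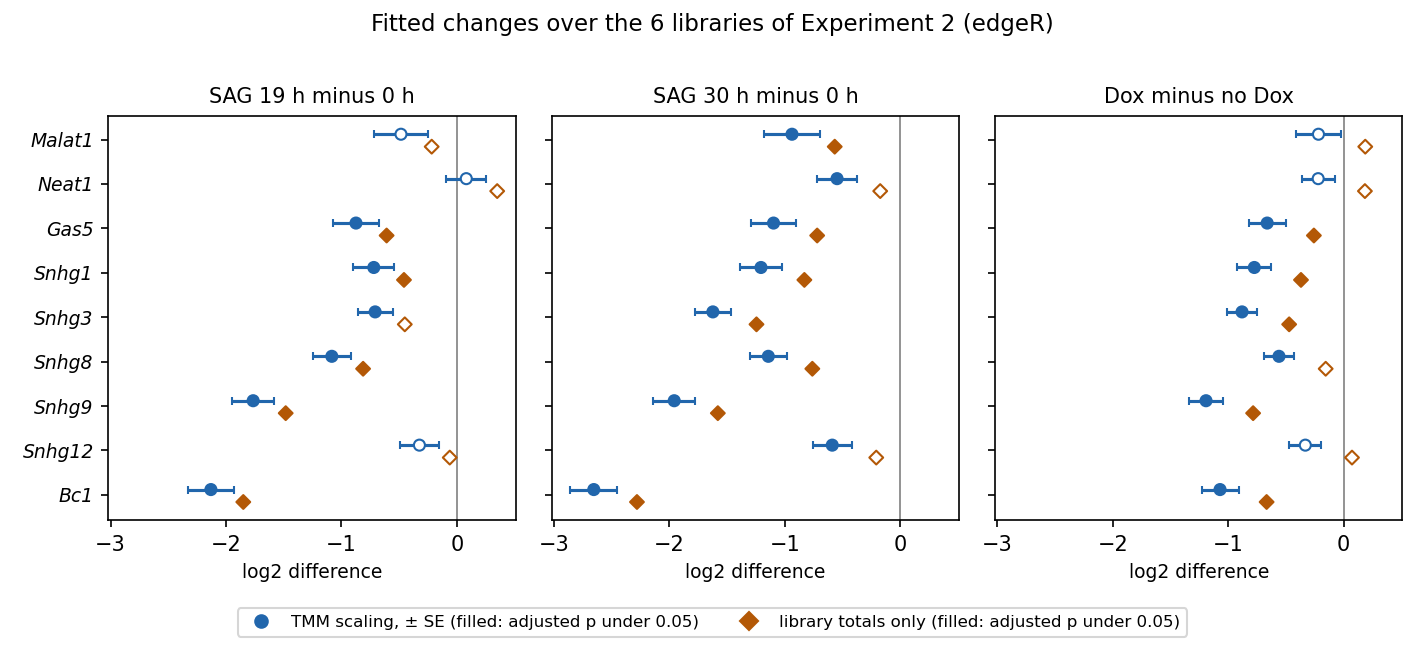
Log2 change of each member in Experiment 2 with its standard error, from edgeR fits of the 6 libraries (circles), and the change without TMM factors (diamonds), filled where the adjusted p is under 0.05. The panels give 19 h and 30 h of SAG against 0 h and Dox against no Dox, and the line marks no change. At 30 h the 9 circles are filled and lie below 0, from -0.55 for Neat1 to -2.66 for Bc1.

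Gas5, which carries the most small nucleolar RNA positions of the members, was at 3001, 2021 and 1842 CPM at 0, 19 and 30 h without Dox and at 2573, 1645 and 1546 with Dox. Snhg1 was at 402, 320 and 222 without Dox and at 327, 216 and 187 with Dox. For both genes the 2 untreated libraries lay above the 4 treated ones, for Snhg1 by a small margin between 0 h with Dox and 19 h without. In the fit of Experiment 2 Gas5 changed by -0.87 at 19 h (SE 0.20, adjusted p = 0.00206) and by -1.10 at 30 h (SE 0.20, adjusted p = 4.16e-05). Snhg1 changed by -0.72 at 19 h (SE 0.18, adjusted p = 0.00513) and by -1.21 at 30 h (SE 0.18, adjusted p = 3.42e-06). Without either untreated library the calls of both at 19 h ended, and without the library at 30 h lacking Dox that of Gas5 at 30 h did too (change -1.01, adjusted p = 0.0601).

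Snhg8, the host of Snora24, was at 215, 114 and 133 CPM at 0, 19 and 30 h without Dox and at 190, 116 and 107 with Dox. The 2 untreated libraries lay above the 4 treated ones. Its change was -1.08 at 19 h (SE 0.16, adjusted p = 1.49e-05) and -1.14 at 30 h (SE 0.16, adjusted p = 1.77e-06), and both calls held with each of the 4 libraries compared left out in turn. Snhg3, the host of the small nucleolar RNAs Snora73a and Snora73b, was at 8.67, 7.17 and 3.81 without Dox and at 7.0, 4.50 and 2.83 with Dox, so that it fell in time order within each arm while the arms overlapped. It was the one host gene called between 19 h and 30 h, with a change of -0.92 (SE 0.16, adjusted p = 0.000408) that was no longer called without the library at 19 h or the one at 30 h lacking Dox. Against 0 h it changed by -0.71 at 19 h (SE 0.15, adjusted p = 0.00141), a call that ended without the library at 0 h or the one at 19 h with Dox, and by -1.62 at 30 h (SE 0.16, adjusted p = 1.59e-09). Rcc1, which shares exonic bases with Snhg3, was at 5.20, 5.93 and 7.95 without Dox and at 5.38, 6.12 and 6.78 with Dox, and was thus higher in each treated library than in the untreated one of its arm.

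Snhg12, whose start carries a run of 6 pyrimidines, changed least among the host genes. Its level was 183, 164 and 164 in Experiment 1, 123, 138 and 121 without Dox and 156, 128 and 120 with Dox in Experiment 2. Treated and untreated libraries overlapped in Experiment 2. The change there was -0.32 at 19 h (adjusted p = 0.200) and -0.59 at 30 h (SE 0.17, adjusted p = 0.00531), and the call at 30 h ended when 3 of the 4 libraries at 0 or 30 h were left out in turn.

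Malat1, the RNA of nuclear speckles, was at 40717, 48516 and 44045 CPM at 0, 17 and 30 h in Experiment 1, at 35897, 26889 and 19562 without Dox and at 32123, 32171 and 26995 with Dox in Experiment 2. Both treated libraries of Experiment 1 were thus above the untreated one, and both treated libraries without Dox of Experiment 2 below theirs. In the fit of Experiment 2 Malat1 changed by -0.48 at 19 h (adjusted p = 0.166) and by -0.94 at 30 h (SE 0.24, adjusted p = 0.00190). The call at 30 h ended without the untreated library lacking Dox (-0.69, adjusted p = 0.167), without the 30 h library lacking Dox (-0.65, adjusted p = 0.434) and without the one with Dox (-1.23, adjusted p = 0.0656).

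Neat1 was at 806, 972 and 1023 CPM in Experiment 1, at 328, 372 and 257 without Dox and at 316, 455 and 319 with Dox in Experiment 2. In each arm of Experiment 2 it was highest at 19 h. Its changes in the fit were 0.08 from 0 to 19 h, -0.63 from 19 to 30 h (SE 0.18, adjusted p = 0.0351) and -0.55 from 0 to 30 h (SE 0.18, adjusted p = 0.0115). The last of these calls ended with any of the 4 libraries at 0 or 30 h left out, and that from 19 to 30 h in 3 of 4 cases. Neat1 and Snhg3 were the 2 members of 9 called lower between 19 and 30 h, against 3.01% of the genes.

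Dox was compared over the 3 times of Experiment 2. In the fit with the features of both experiments 2 of 5 members were called lower with Dox, Snhg9 by -1.19 (SE 0.15, adjusted p = 1.50e-07) and Bc1 by -1.07 (SE 0.16, adjusted p = 3.77e-06), where 19.4% of 14308 genes were called lower. With all features of Experiment 2, 6 of 9 members were called lower, against 18.9% of the genes, the other 4 being Gas5, Snhg1, Snhg3 and Snhg8. Gas5 changed by -0.66 (SE 0.16, adjusted p = 0.00163), Snhg1 by -0.77 (SE 0.15, adjusted p = 0.000122), Snhg3 by -0.88 (SE 0.13, adjusted p = 2.59e-06) and Snhg8 by -0.56 (SE 0.13, adjusted p = 0.00132). The calls of Gas5 and Snhg8 ended without either library at 30 h.

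The difference with Dox was not alike at the 3 times for every member. For Bc1 the log2 ratio of the level with Dox to that without was -1.39 at 0 h, 0.03 at 19 h and -0.64 at 30 h, and for Snhg9 it was -1.55, -0.19 and -0.60. For both the gap was widest before SAG. For Gas5 the ratios were -0.22, -0.30 and -0.25, and for Snhg1 they were -0.30, -0.56 and -0.25. For Malat1 they were -0.16, 0.26 and 0.46, so its level was higher with Dox at both later times. Each of these ratios compares 1 library with 1 library and has no test of its own.

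Scaling bears on these changes. TMM factors centre the changes of most genes near 0, and without them the median of all genes in the fit of Experiment 2 was 0.28 at 19 h, 0.39 at 30 h and 0.43 for Dox. Without them Snhg3 was not called at 19 h (-0.45, adjusted p = 0.0723), and Snhg1 was still called there, at -0.46 in place of -0.72. The change of Neat1 at 30 h became -0.17 (adjusted p = 0.342) and of Snhg12 -0.21 (adjusted p = 0.284). The other 7 members were still called lower at 30 h, among them Malat1 by -0.57, Gas5 by -0.72 and Snhg8 by -0.76 in place of -0.94, -1.10 and -1.14. With Dox the changes of Gas5, Snhg1 and Snhg3 shrank to -0.26, -0.37 and -0.47 and those of Snhg9 and Bc1 to -0.78 and -0.67, all still called. The change of Snhg8 with Dox became -0.16 (adjusted p = 0.310), and Malat1, Neat1 and Snhg12, none of them called, turned from -0.22, -0.22 and -0.33 to 0.19, 0.18 and 0.07. Among all genes called, the share that was higher went from 45.6% with the factors to 85.6% without them at 19 h, from 50.9% to 80.8% at 30 h and from 49.8% to 92.6% with Dox. In the fits over both experiments it went from 27.8% to 44.0% at 30 h of SAG, from 60% to 100% and from 59.1% to 75% for the differences with Dox, and from 50.8% to 19.2% between the experiments. Changes are given with the TMM factors unless stated.

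Between the experiments the members without Dox differed most for Bc1 and Snhg9, which were higher in Experiment 2, and for Neat1, which was lower. The log2 difference was 3.89 for Snhg9 (SE 0.28, adjusted p = 1.36e-14) and -1.07 for Neat1 (SE 0.27, adjusted p = 0.00144). Bc1 was also called higher. Its log2 value is not given because Experiment 1 held at most 5 UMIs per library. Malat1 differed by -0.25 (adjusted p = 0.646), or by -0.73 without TMM factors (adjusted p = 0.00121), and Snhg12 by 0.06, or by -0.41 without TMM factors (adjusted p = 0.163). These were 3 of 5 members, where 42.0% of 13665 genes were called in either direction. The experiments also differ in the software version and in the feature list, which cannot be told apart from the experiment.

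Barcodes were next divided by the share of their UMIs from mitochondrial genes, into under 1%, 1% to 10% and over 10%. Mitochondrial RNA lies outside the nucleus, in the cytoplasm. Barcodes over 10% made up 26.5% to 43.5% of a library in Experiment 1 and 25.9% to 46.3% in Experiment 2. Barcodes under 1% numbered 3 to 5 per library in Experiment 1. In Experiment 2 there were 18, 92 and 425 of them at 0, 19 and 30 h without Dox and 19, 373 and 282 with Dox, so that only the 4 treated libraries of Experiment 2 entered this comparison.

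Malat1 and Neat1 were lower in the barcodes under 1%. For Malat1 the level in barcodes under 1% against those of 1% to 10% was 1135 against 27816 without Dox and 12426 against 32148 with Dox at 19 h, and 8579 against 19966 without Dox and 13603 against 25738 with Dox at 30 h. Neat1 was at 38.5 against 358 and 123 against 259 without Dox, and at 245 against 440 and 180 against 291 with Dox. Both were thus lower in 4 of 4 libraries, and most of all at 19 h without Dox. In the fit with library and class as terms Malat1 changed by -1.66 (SE 0.33, adjusted p = 0.00165) and Neat1 by -1.10 (SE 0.19, adjusted p = 0.000653). Without the library at 19 h lacking Dox these changes were -1.13 (adjusted p = 6.18e-06) and -0.82 (adjusted p = 2.48e-05).

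Among Bc1 and the host genes Snhg3 alone was called lower in these barcodes. Across the 4 libraries the log2 ratio of barcodes under 1% to those of 1% to 10% lay between -0.14 and 0.08 for Snhg1, between -0.10 and 0.07 for Snhg8, between -0.17 and 0.07 for Snhg12 and between -0.19 and 0.31 for Snhg9, and none of these was called. Bc1 was higher in 4 of 4 libraries, with ratios of 0.05 to 0.27, and changed by 0.26 (SE 0.07, adjusted p = 0.00698), a call that ended without TMM factors (0.14, adjusted p = 0.0754) and without the library at 19 h with Dox (0.18, adjusted p = 0.146). Gas5 changed by 0.21 in the fit of Experiment 2 (SE 0.07, adjusted p = 0.0192), a call that ended without TMM factors (0.07, adjusted p = 0.184) and without either library at 19 h (0.16 and 0.15, adjusted p = 0.0617 and 0.159). Snhg3 was at 1.33 against 7.44 at 19 h and 2.50 against 3.86 at 30 h without Dox, and at 1.99 against 4.95 and 1.82 against 2.74 with Dox. The first of these values rests on 3 UMIs. Snhg3 changed by -0.93 (SE 0.21, adjusted p = 0.00320). In all, 3 of 5 members were called in the fit with the features of both experiments, where 24.5% of 13093 genes were called in either direction (1181 genes without the library at 19 h with Dox, in place of 3210), and 5 of 9 with all features of Experiment 2, where 28.7% of 13745 were.

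**Figure D3:**
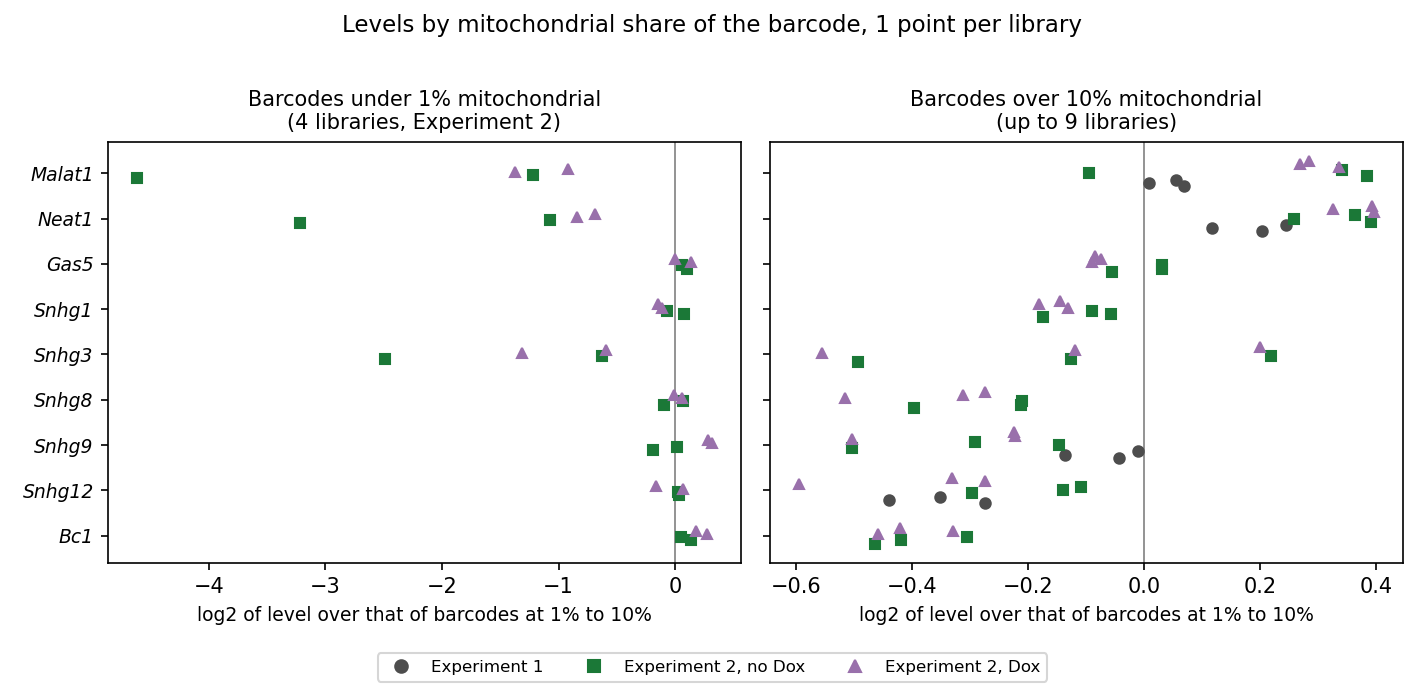
Log2 ratio of each member's level in barcodes under 1% (left) and over 10% (right) mitochondrial UMIs to that in barcodes of 1% to 10%, with 1 point per library that holds at least 20 barcodes of the class. Malat1 and Neat1 lie below 0 on the left in 4 of 4 libraries, with the library at 19 h without Dox lowest at -4.61 and -3.21.

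Barcodes over 10% mitochondrial went the other way for the nuclear RNAs in most libraries. The ratio to barcodes of 1% to 10% was above 0 for Neat1 in 9 of 9 libraries, from 0.12 to 0.40, and for Malat1 in 8 of 9, from -0.09 to 0.39. Neither was called in the fit, with changes of 0.23 (adjusted p = 0.154) and 0.10 (adjusted p = 0.740). Without the library at 19 h lacking Dox, the one in which Malat1 was below 0, both were called higher, Neat1 by 0.25 (adjusted p = 0.00109) and Malat1 by 0.16 (adjusted p = 0.0388). Bc1 and 4 of the 6 host genes were called lower in these barcodes. Snhg12 was lower in 9 of 9 libraries and changed by -0.37 (SE 0.05, adjusted p = 2.31e-05). Snhg9 changed by -0.37 (SE 0.06, adjusted p = 0.000149) and Bc1 by -0.45 (SE 0.05, adjusted p = 1.64e-06). In Experiment 2 Snhg8 changed by -0.36 (SE 0.05, adjusted p = 1.67e-05) and Snhg1 by -0.17 (SE 0.05, adjusted p = 0.0149), each lower in 6 of 6 libraries, while Gas5 and Snhg3 were lower in 4 of 6 and were not called. Snhg3 was called without either library at 30 h (-0.31 and -0.32). These were 3 of 5 members called lower against 20.4% of the genes, and 5 of 9 in Experiment 2 against 19.7%. A difference of this change between the experiments was called for none of the 5 members, where 18.9% of genes were called in either direction. Without the library at 19 h lacking Dox, Malat1 (0.33, adjusted p = 0.00749) and Neat1 (0.24, adjusted p = 0.0246) were called for it. All levels by class are sums over barcodes, in which deeper barcodes weigh more.

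For these classes too the scaling moved the split of all genes called. The share that was higher went from 57.6% to 23.2% without TMM factors for barcodes under 1%, from 55.5% to 21.9% for the same comparison with all features of Experiment 2, from 47.8% to 67.0% for barcodes over 10%, and from 49.2% to 35.1% for the difference between the experiments. In barcodes of 1% to 10% alone the 9 members were still called lower at 30 h in Experiment 2. At 30 h Malat1 changed by -0.87 (adjusted p = 0.00651), Neat1 by -0.50 (adjusted p = 0.0220) and Bc1 by -2.79 in those barcodes.

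Counts per barcode were compared after each barcode had been thinned at random to 5000 UMIs. The median count of Malat1 in barcodes under 1%, of 1% to 10% and over 10% was 3, 140 and 164 UMIs at 0 h, 3, 118 and 70 at 19 h and 8, 67 and 85.5 at 30 h without Dox. With Dox it was 0, 128 and 156 at 0 h, 12, 127 and 139 at 19 h and 8.5, 101 and 116 at 30 h. The low counts in barcodes under 1% were thus present at 0 h also, although in 18 and 19 barcodes only. Barcodes with fewer than 10 Malat1 UMIs, a limit chosen after its values were seen, made up 83.3%, 87.0% and 54.4% of the barcodes under 1% at 0, 19 and 30 h without Dox and 94.7%, 45.3% and 52.1% with Dox. Among barcodes of 1% to 10% they made up 4.09%, 4.04% and 12.6% without Dox and 5.66%, 5.56% and 8.41% with Dox. Of all barcodes of a library, 2.52%, 4.06% and 6.77% were below 10 in Experiment 1 at 0, 17 and 30 h, 3.71%, 4.45% and 17.0% without Dox and 4.47%, 8.04% and 9.89% with Dox in Experiment 2. Their share was highest at 30 h in each arm.

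**Figure D4:**
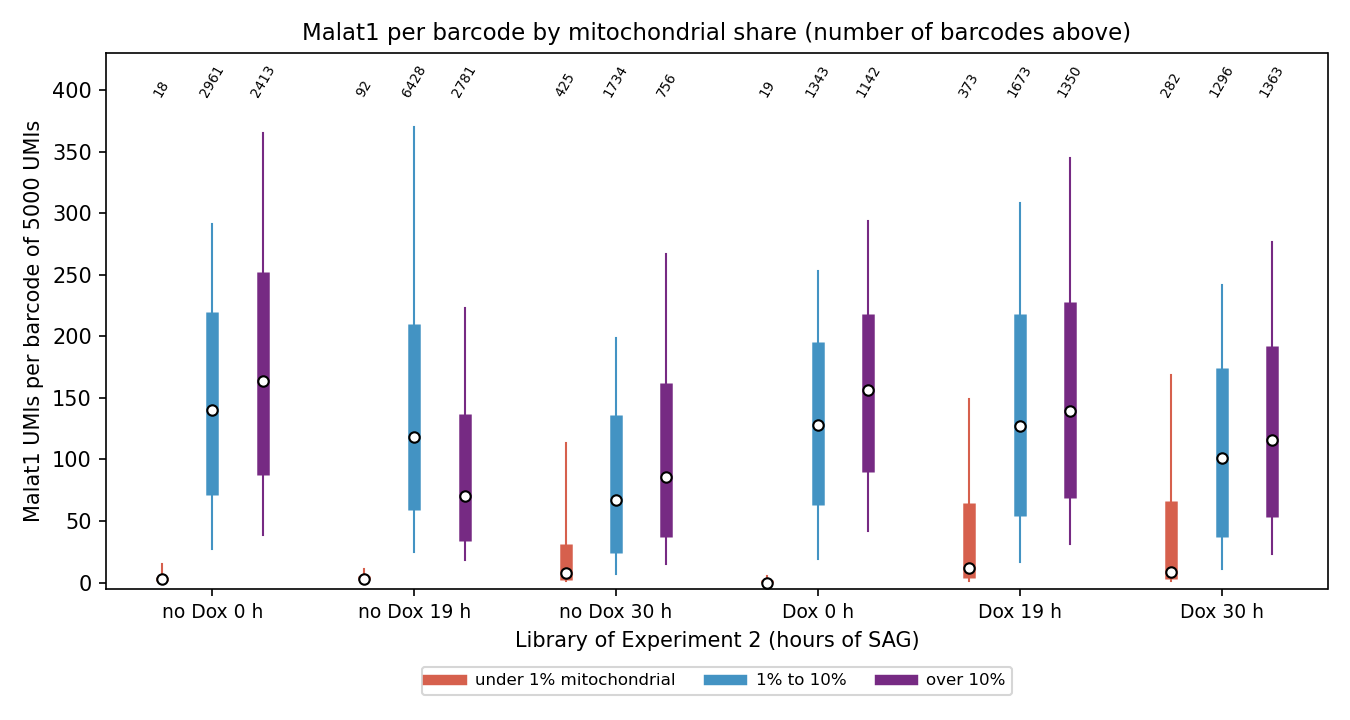
Malat1 UMIs per barcode after thinning to 5000 UMIs in the 6 libraries of Experiment 2, by class of mitochondrial share. Each dot is the median of 1 class in 1 library. The thick bar runs between the quartiles and the thin line from the lowest to the highest decile, with the number of barcodes above. In barcodes under 1% the medians lie between 0 and 12 UMIs, and in barcodes of 1% to 10% between 67 and 140.

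Neat1 was compared by the share of barcodes in which it was found. A Neat1 UMI was found in 22.2%, 16.3% and 27.3% of the barcodes under 1% at 0, 19 and 30 h without Dox and in 5.26%, 42.1% and 36.5% with Dox. In barcodes of 1% to 10% the shares were 64.6%, 74.6% and 53.5% without Dox and 58.5%, 67.7% and 58.3% with Dox, and thus higher in 6 of 6 libraries. For correlations each thinned count was divided by the barcode's thinned non-mitochondrial UMIs. Within a library these shares of Malat1 and Neat1 went together across barcodes, with Spearman's rho of 0.26 to 0.45 over the 9 libraries. Gas5 and Malat1 gave rho of -0.17 to -0.12 in the 6 libraries of Experiment 2, and Gas5 and Snhg1 0.11 to 0.23. With the barcode's mitochondrial share Snhg1 gave rho of 0.01 to 0.12 there, although its summed level was lower in barcodes over 10%. In the same libraries Snhg8 gave -0.04 to 0.06, Gas5 -0.12 to 0.05, Snhg3 -0.05 to 0.006, Snhg9 -0.05 to 0.003 and Bc1 -0.10 to 0.007. Over the 9 libraries Snhg12 gave -0.06 to 0.08, Malat1 -0.16 to 0.41 and Neat1 0.09 to 0.35. These are descriptions over barcodes of 1 depth that share a library, and genes of one barcode compete for the same 5000 UMIs.

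At the same depth Gas5 was found in 98.9% to 99.9% of barcodes in Experiment 2. The share of barcodes with a Snhg1 UMI was 72.2%, 71.7% and 56.3% without Dox and 69.1%, 54.3% and 51.8% with Dox, and with a Snhg8 UMI 56.0%, 39.5% and 42.3% without Dox and 52.7%, 37.5% and 35.9% with Dox. For Bc1 it was 39.8%, 16% and 13.3% without Dox and 23.2%, 14.9% and 9.38% with Dox, and it was 0 of 1270, 0 of 1010 and 0 of 931 barcodes in Experiment 1, at this thinned depth. Without thinning it was 0.394%, 0.297% and 0% there. The treated libraries were below the untreated one of their arm for all 3 genes. The study has a single cell line and hence no cell type lacking these genes, so the share that free RNA in the droplets could give was not measured.

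Bc1 was unevenly spread over the barcodes of the untreated Experiment 2 library without Dox. It had a mean of 1.06 UMIs per thinned barcode and a variance 4.34 times the mean, 60.2% of barcodes had none where a Poisson law of that mean gives 34.7%, and the tenth of barcodes with the most UMIs held 55.9% of them. The highest barcode had 39. In the untreated library with Dox the variance was 2.16 times the mean, and in the treated libraries 1.25 to 1.49 times. Snhg12 in that untreated library without Dox had a mean of 0.533 and a variance 1.21 times the mean. The ratio rises with the mean for a fixed relative spread, and the means of Bc1 were lower in the other libraries.

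Genes with the most similar levels were sought by Pearson's r of log2 levels centred within each experiment, among 7260 genes whose mean level over 9 libraries reached 10 CPM. For Snhg9 these were Bc1 (r of 0.97), Pbld1 (0.96) and Rab33b (0.96), and for Bc1 they were Cox7b (0.97), 1190007I07Rik (0.97) and Nudt4 (0.96). Snhg9 was itself below 10 CPM and was therefore not among the genes ranked for Bc1. Across barcodes within the libraries of Experiment 2, Bc1 and Snhg9 gave rho of -0.02 to 0.08, at low counts per barcode. Malat1 was most like Ccdc127 (0.91), Topbp1 (0.91) and Ccdc82 (0.89), Neat1 like Bmp2k (0.87), Zscan26 (0.86) and Zfp985 (0.83), and Snhg12 like Ppib (0.94), Hscb (0.94) and Mrpl24 (0.94). Over the 6 libraries of Experiment 2, with 7018 genes ranked, Snhg8 was most like Snhg18, another host gene (0.99), and Rpl23, a ribosomal protein gene, was among the 3 most like Gas5 (0.99). With so few libraries high values of r are frequent, and they are given as a description.

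Other genes of the same processes were counted from lists written from general knowledge. Of 33 other host genes of small nucleolar RNAs, 32 were tested in the fit of Experiment 2, and at 30 h 15 were called lower and 4 higher, with a median change of -0.29 beside 0.01 for all genes, where 22.6% of all genes were called lower and 23.4% higher. Those with the smallest p were Dancr (-1.05), Snhg14 (-1.13) and Snhg6 (-1.06). At 19 h 8 were lower and none higher, Snhg6 (-1.31), Dancr (-0.71) and Snhg18 (-0.76) among them, beside 8.97% of all genes lower and 7.51% higher. With Dox 20 were lower and none higher (median -0.41), beside 18.9% and 18.8% of all genes. In the fit over 9 libraries none of 23 passed the test at either time without Dox.

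Cytosolic ribosomal protein genes, known for the terminal oligopyrimidine start, were counted in the same comparisons. At 30 h in Experiment 2, 52 of 81 were called lower and none higher (median -0.67), at 19 h 26 (median -0.44) and with Dox 74 (median -0.66), to be read against the same shares of all genes. Rpl29 changed by -1.36 and Rpl35 by -1.24 at 30 h. Their UMIs together made up 46.8%, 42.2% and 40.2% of a library at 0, 19 and 30 h without Dox, 40.7%, 33.5% and 33.9% with Dox, and 29.7%, 33.3% and 32.8% in Experiment 1. Over the 9 libraries none of 81 passed at 30 h without Dox (median -0.23). Between the experiments 53 of 80 were higher in Experiment 2, beside 21.4% of all genes, Rpl13a (3.22), itself a host gene, among them. Their part in the members' changes was not tested.

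Genes for proteins that work with the members were called in both directions. Of all genes 23.4% were called higher and 22.6% lower at 30 h, and 18.8% and 18.9% with Dox. Of 28 small nucleolar ribonucleoprotein and nucleolar genes, 9 were called higher at 30 h in Experiment 2, including Nolc1 (0.79), Nop2 (0.66) and Nop53 (0.77), and 2 lower, whereas with Dox 2 were higher and 16 lower, Nop58 (-0.63) among these. Of 21 factors of nonsense-mediated decay 6 were higher at 30 h, including Upf1 (0.93), the central helicase of the process, and Smg9 (0.83), and 4 were lower, Magohb (-1.46) having the smallest p. Of 26 genes that bind Bc1 or act in its transcription and in translation, 10 were higher at 30 h, including Eif4g1 (1.07), a scaffold of translation initiation, Purb (0.86) and Brf1 (0.84), a subunit of the RNA polymerase III initiation factor, and 1 was lower. Of 14 mRNAs listed as possible targets of nonsense-mediated decay, 2 were higher and 2 lower at 30 h. Among 18 other long noncoding RNAs 3 were higher, including Meg3 (1.29) and Mirg (1.40) of an imprinted cluster, and 9 lower, including Mir155hg (-1.12). Rmrp, the RNA of RNase MRP and the one member tested of the list of small polymerase III and RNase RNAs, fell with Bc1: it was at 4.83, 1.65 and 0.431 without Dox and at 3.43, 1.06 and 1.56 with Dox in Experiment 2, a change of -2.45 at 30 h, and at 0.0283, 0.400 and 0.279 in Experiment 1.

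In the barcodes under 1% mitochondrial 10 of 17 other long noncoding RNAs tested in Experiment 2 were called lower and none higher. Where these RNAs lie in the cell was not measured, and their median change was -0.64 beside 0.00 for all genes. Of all genes 12.7% were called lower and 15.9% higher in this comparison. Kcnq1ot1 (-1.22), which silences imprinted genes in cis, Lncpint (-0.94) and Dnm3os (-0.78) had the smallest p. Among mRNAs of paraspeckle proteins 10 of 18 were lower, including Taf15 (-0.63) and Rbm4 (-0.43), and of nuclear speckle proteins 11 of 20, led by Pnn (-0.62), Luc7l2 (-0.78) and Rbm25 (-0.38), with none higher in either list. Of 32 other host genes 3 were higher and 7 lower, Snhg14 (-1.39) having the largest change of those named, and 54 of 81 ribosomal protein genes were higher (median 0.24). In barcodes over 10% 9 of these 17 long noncoding RNAs were higher and 1 lower, while 16 of the 32 host genes were lower and 6 higher. There 24.8% of all genes were called higher and 19.7% lower.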

How the data were processed

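Per the labels' protocols, single NIH3T3-CG cells were sequenced with the 3' kit of 10x Genomics. The authors deposited raw UMI counts for each gene in each barcode, made with Cell Ranger on mm10 per the submitters' processing notes (versions 3.1.0 for Experiment 1 and 6.0.1 for Experiment 2 per the file headers). The filter behind the deposited barcodes is not given in the sources used here.

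Barcodes with at least 5000 UMIs were kept, 13 mitochondrial features were left out of levels and tests, and counts were summed per library. The gene ID joined 30407 features between the experiments, 597 of which had changed their symbol, and the remaining features held 0.0701% to 0.838% of UMIs. Summed counts were tested with edgeR 4.0.16 in R 4.3.3 (filterByExpr, TMM factors, quasi-likelihood F test, Benjamini-Hochberg adjustment over all genes tested, calls at adjusted p under 0.05). SAG time was fitted on 9 libraries with condition and experiment as terms. The experiment number pairs libraries because the labels give it as a shared experiment. Dox and Experiment 2 by itself were fitted on 6 libraries with SAG time and Dox, and the classes of mitochondrial share with library and class. The fits of SAG time and Dox had 2 residual degrees of freedom, and conditions with Dox have 1 library each, assumed to vary as the others do. Each standard error was taken as the absolute log2 change over the root of the F statistic. Barcodes were thinned with Python 3.11.15 and numpy 2.4.6. No doublet caller was run. Intervals of levels are exact 95% Poisson intervals and cover counting error only. The tests were also run on simulated counts with known changes.

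The alternatives were DESeq2 1.42.0, no TMM factors, no filter on low counts, at least 10000 UMIs per barcode, barcodes of at most 10% or of 1% to 10% mitochondrial share, the 3 arms as the block, no block, and each library left out in turn (for the mitochondrial classes mostly added after the data had been seen). The members, lists and tests were chosen with earlier results of these data known. Named beyond the members are the up to 3 called genes of smallest p in each list and comparison, of which only some are printed, the 3 genes most like a member, and neighbouring genes where gene models overlap. Some genes that this rule names are not reported here.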

Additional observations from a re-analysis of the deposited data

Results flagged for a closer look

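In barcodes under 1% mitochondrial UMIs, the library at 19 h without Dox of Experiment 2 lay far from the other 3 libraries that could be compared. There the log2 ratio of Malat1 to barcodes of 1% to 10% was -4.61, against -1.37 to -0.92 in the others, and that of Neat1 was -3.21, against -1.08 to -0.69. Both values passed Dixon's 95% limit for a single distant value, which chance passes in about 1 of 20 groups, and 18 groups were looked at. The 2 untreated libraries of Experiment 2, which have 18 and 19 barcodes under 1% and fell short of the minimum of 20, had ratios of -4.02 without Dox and -5.15 with Dox for Malat1, and of -2.32 and -3.55 for Neat1, all below those of the 3 other libraries. The libraries of Experiment 1, with 3 to 5 such barcodes each, varied more. At 0, 17 and 30 h their ratios were -0.41, 0.31 and -3.77 for Malat1 and 0.02, -3.21 and -4.08 for Neat1. The library at 19 h without Dox of Experiment 2 had the lowest median depth over all its barcodes, 8155 UMIs. Its 92 barcodes under 1% had a median of 21074.5 UMIs, and its barcodes of 1% to 10% had a median of 7960. The part of depth in these values was not tested.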

How the results depend on the processing

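Most of the members' calls kept their direction, and what ended them was most often the pairing of libraries or a left-out library of Experiment 2. Without the block (experiment, Dox arm, SAG time or library, by comparison) edgeR called 0 of all genes for SAG at 17 to 19 h (42 at unadjusted p under 0.05), 0 at 30 h (103), 0 from 17 to 19 h to 30 h (13), and 0 for the Dox differences at both times (20 and 15). In place of 57, 270, 18, 10 and 22 called genes in these comparisons, barcodes of 1% to 10% mitochondrial gave 25, 85, 1, 1 and 0 (210 unadjusted in the last), barcodes of at most 10% gave 18, 73, 1, 0 (206) and 0 (210), no TMM factors 28, 116, 2, 2 and 4, and DESeq2 12, 21, 0 (159), 1 and 3. The 3 arms as the block gave 14, 1150 and 0 (772) for the SAG comparisons, and at least 10000 UMIs gave 11 from 17 to 19 h to 30 h. Without the block the count for Dox went from 5529 to 343, for barcodes under 1% from 3210 to 13 and for those over 10% from 5106 to 43. In Experiment 2 it went from 2466 to 1 at 19 h, from 6882 to 109 at 30 h, from 678 to 0 (604) between them, from 5637 to 326 for Dox, from 3941 to 0 (2109) for barcodes under 1% and from 6126 to 324 for those over 10%. There no TMM factors gave 4027 at 19 h. From 19 to 30 h barcodes of 1% to 10% gave 265, DESeq2 198, at least 10000 UMIs 366, no TMM factors 360 and no filter 1028. The members' changes that were called in at least 1 of the 2 settings and turned in sign did so without the block: Bc1 in barcodes under 1% (-0.62, and -1.18 with all features of Experiment 2), Gas5 there (-0.17), and the difference between experiments for barcodes over 10% of Snhg9 (3.50) and Bc1 (10.41). Without the block that last fit had no term for the experiment. Its values for Snhg9 and Bc1 therefore also hold their plain level difference between the experiments. Barcodes under 1% came from treated libraries of Experiment 2 alone, so without library terms that comparison also holds differences between libraries. With 1 library left out at a time the counts lay between 12 and 207 for SAG at 17 to 19 h, 1 and 958 at 30 h, 0 and 40 between these times, 1 and 184 and 0 and 187 for the Dox differences, 3572 and 4536 for Dox and 3158 and 5550 between experiments. In Experiment 2 they lay between 617 and 4864 at 19 h, 2651 and 4661 at 30 h, 50 and 4094 between these times and 3627 and 4642 for Dox. Another 69 of 1276 member changes under an alternative had the other sign and were called in neither setting, 14 of them without TMM factors and 37 with a library left out. For the mitochondrial classes, where leaving out libraries other than that at 19 h lacking Dox was added after the data had been seen, the counts lay between 1181 (without 19 h with Dox) and 2644 under 1%, 4327 and 5190 over 10%, and 1216 (without 17 h of Experiment 1, and 1226 without its 30 h) and 2913 for the difference between experiments. With all features of Experiment 2 they lay between 1625 (without 19 h with Dox) and 3289 and between 5084 and 5929 for the 2 classes. The cause of these changes was not tested. Of 99 member changes computed without the block 39 lost their call, against 3 of 99 with DESeq2 and 7 of 99 without TMM factors. The 99 include changes that were not called in the first place, which could not lose a call, so the share lost among called changes is larger. Low counts limit the values of Bc1 and Snhg9 in Experiment 1 and of Snhg3 in barcodes under 1%.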
